A study of Mus musculus with 5 samples.

Results

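Neutrophils without a transcript of Siglecf, a lectin gene that marks a subset of tissue neutrophils, were taken from single-cell RNA sequencing of mouse kidney by a rule on transcript counts, so members were chosen by their measured levels of S100a8, S100a9, Siglecf, Lrp2, Slc34a1 and mitochondrial genes. A barcode, the tag of 1 droplet, was a member if it had at least 500 unique molecular identifiers (UMIs, which count transcripts), at least 200 genes, at most 25% of UMIs from mitochondrial genes and at least 1% from S100a8 and S100a9 together, with no Siglecf UMI, at most 1 Lrp2 UMI and at most 3 Slc34a1 UMIs. Lrp2 encodes megalin, an endocytic receptor, and Slc34a1 a phosphate transporter, both of the proximal tubule, the main source of RNA in these suspensions. The rule found 1100 members among the 79202 barcodes that met the first 3 limits (1.39%, 95% Clopper-Pearson interval 1.31 to 1.47). Of 1370 barcodes with 1% or more S100a8 and S100a9, 179 exceeded the tubule limits and 91 of the others held Siglecf. The rule also left out barcodes that held neutrophil transcripts: 223 barcodes with less than 1% S100a8 and S100a9 held at least 2 UMIs of the neutrophil receptors Csf3r and Cxcr2, and 55 barcodes with 1% or more were above the mitochondrial limit.

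The samples were kidneys of male C57BL/6J mice aged 6 to 8 weeks, either after sham surgery or taken on day 1, 3, 14 or 28 after unilateral ischemia-reperfusion (UIR), a surgical model of acute kidney injury (AKI). The labels list 1 sample of kidney tissue from 3 mice for each of the 5 conditions, digested with enzymes without a sort for any cell type. The study's methods count more matrices than that, and whether the 3 mice were pooled before capture is not settled. The labels also carry the cell type entry Goblet cell for whole kidney. The deposited matrix held 5 libraries, told apart by a number at the end of each barcode, and nothing in the labels ties a library to sham or to a day. All members were therefore 1 pooled sample, libraries are named by number only, no test was run and no value is given by condition.

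Neutrophils are short-lived granulocytes that leave the marrow, follow chemokine gradients through Cxcr2 and enter injured tissue within hours. They make their granule proteins in sequence while they mature, azurophil proteins first, then specific and gelatinase granule proteins, so mature cells carry the proteins of early granules with little of their mRNA. In tissue they release proteases, oxidants, chemokines and interleukin 1, and pattern receptors such as Mincle (gene Clec4e) sense material of dead cells and drive such output through Syk.

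Members held 1519864 UMIs, with a median of 1252.5 UMIs and 588 genes a barcode, against 2683 UMIs in the 78102 other barcodes. Libraries 1 to 5 gave 50, 420, 502, 126 and 2 members, which were 0.499%, 3.71%, 1.48%, 1.12% and 0.0157% of their passing barcodes. Library 3 had the most passing barcodes (33839) and the shallowest (median 1236 UMIs among the others, against 3191 to 4325.5). A share of barcodes thus depends on how many shallow barcodes a library holds. Library 5, with 2 members and 1806 UMIs, was left out of levels by library. The median mitochondrial share of members was 10.9% in library 1 and 2.63% to 6.17% in libraries 2, 3 and 4. No member's barcode sequence was shared with a member of another library, and 18 occurred among passing barcodes of another library.

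The label was checked with markers that the rule did not use. Csf3r, the receptor of granulocyte colony-stimulating factor, or Cxcr2 was found in 825 of 1100 members (75.0%, 95% Clopper-Pearson interval 72.3 to 77.5). In proximal tubule barcodes, which should lack both genes and have a median of 6629 UMIs, the share was 0.880%. With all members and a random draw of 3000 proximal tubule barcodes thinned to 500 UMIs, the shares were 50% and 0.1%. By library, 80.0%, 79.3%, 70.5% and 77.0% of members of libraries 1 to 4 held 1 of the 2 receptors at full depth. After thinning these shares were 64%, 54.5%, 44.4% and 51.6%. The label therefore held for most members, and members without a receptor UMI cannot be told apart from barcodes too shallow to show one.

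Members also held RNA of other cells. The proximal tubule list (9 genes, of which Lrp2 and Slc34a1 were limited by the rule) summed to 5638 CPM (UMI counts scaled to a group total of 1e6) in members, and to 7491, 2784, 7433 and 6784 CPM in members of libraries 1 to 4. Barcodes of 1 to 100 UMIs, which hold free RNA, had 28728, 29075, 18655 and 27129 CPM of the same genes in those libraries. Library 3 had 737 barcodes of 100 to 199 UMIs, against 15833 to 32339 in the others. Whether its barcodes of 1 to 100 UMIs are like those of the other libraries was not tested. Kap, an androgen-regulated tubule gene, was at 3335 CPM in members and 28172 CPM in all other barcodes. The part of such RNA in other results was not tested. Barcodes under the depth limit seldom met the limit on S100a8 and S100a9. Among 220627 barcodes with at least 100 but under 500 UMIs, 132 had 1% or more S100a8 and S100a9.

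At least 1 UMI of Ly6c2, Ccr2, Csf1r or C1qa, genes of monocytes and macrophages, was found in 208 members (18.9%, interval 16.6 to 21.4), with 24.3% in library 3, against 8.20% of all other barcodes and 8.08% of proximal tubule barcodes, which are deeper. A stricter sum of 3 or more UMIs of Ly6c2, Ccr2, F13a1 and Fn1 was found in 26 members (2.36%, interval 1.55 to 3.44), 22 of them in library 3, and 11 of the 26 had no Csf3r or Cxcr2 UMI. Macrophage, dendritic, T and NK, endothelial and erythroid marker lists summed to 588, 408, 34.2, 69.1 and 63.2 CPM in members, and 5 of 7 eosinophil, basophil and mast cell genes (Epx, Prg2, Mcpt8, Cpa3 and Fcer1a) were at 0. Ly6g, the antigen used to sort neutrophils in mice, was found in 6% of members (interval 4.67 to 7.57) against 0.0423% of other barcodes, so its absence from a barcode at this depth says little.

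S100a8 and S100a9, which encode the 2 subunits of calprotectin and which the rule used, made up a median of 6.76% of a member's UMIs, with the 5th and 95th percentiles at 1.28% and 21.1% and the highest value at 39.2%. The 43 members just inside the limit, at 1% to 1.2%, held Csf3r or Cxcr2 in 51.2% of barcodes and 3 or more monocyte UMIs in 9.30%. Of the 81 barcodes just outside it, at 0.8% to 1%, 33.3% held 1 of the 2 receptors and 9.88% the monocyte UMIs. Of the limits on tubule genes, members held a Lrp2 UMI in 14.7% and a Slc34a1 UMI in 41% of barcodes. In the 1057 members above 1.2% S100a8 and S100a9 the receptor and monocyte shares were 76.0% and 2.08%. S100a8 lies at chr3:90668978-90670035 on the plus strand and S100a9 at chr3:90692632-90695721 on the minus strand (GRCm38, the assembly of the mm10 build the authors used).

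Against all other barcodes that passed the first 3 limits, members were marked by granule, receptor and signalling genes of neutrophils and by low levels of tubule genes. Of 7697 genes with a mean of the 2 groups of 10 CPM or more, 853 (11.1%) were at least 4 times higher in members and 925 (12%) at least 4 times lower, and the median log2 ratio over all genes tested was -0.63. S100a8 and S100a9 chose the members, so genes of the same cells had to differ here and nothing is read from the counts of this comparison, here or in the lists that follow. Many list genes reached the level for testing only through the members, and such genes had to be higher. The ratios below describe the cells, with 95% intervals from exact Poisson and conditional binomial limits that cover counting error only, and they cannot tell more transcripts in a cell from fewer transcripts of other genes.

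**Figure D1:**
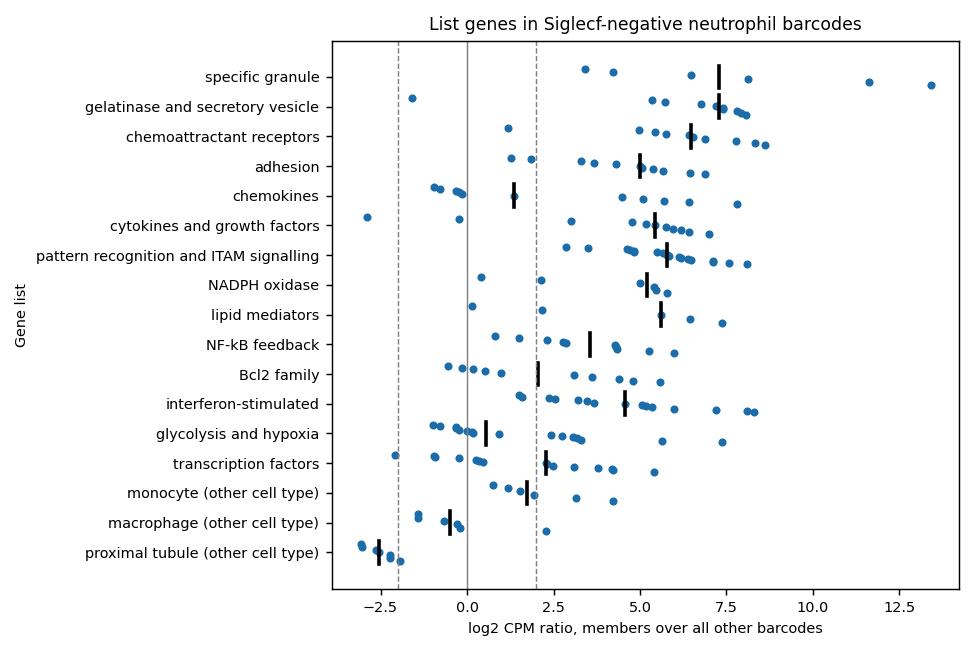
Each point is 1 gene of a list, placed by its log2 ratio of CPM in Siglecf-negative neutrophil barcodes over all other barcodes, with the list's median as a black bar and dashed lines at 4 times higher and lower. Genes had a mean of at least 10 CPM, and Lrp2 and Slc34a1 are left out. Granule, receptor and pattern recognition genes lie mostly to the right of 2, and proximal tubule genes near -2.5.

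Granule genes differed by class of granule. No azurophil granule gene reached the level for testing: Mpo, Ctsg and Ms4a3 had no UMI, which with 1519864 UMIs allows up to 1.97 CPM each (the level of 3 UMIs), Elane had 1 UMI and Prtn3, a serine protease, was at 15.8 CPM. The 6 specific granule genes were all at least 4 times higher in members than in all other barcodes (background 11.1%), with a median log2 ratio of 7.30. Lcn2, which binds bacterial siderophores and which injured tubules also make, was at 1563 CPM in members and 145 CPM in the others. Its values were 825, 924, 2285 and 557 CPM in libraries 1, 2, 3 and 4, so library 3 stood above the other 3. Of 10 gelatinase granule and secretory vesicle genes, 9 passed the 4-fold limit upwards. Mmp9, gelatinase B, was at 900.1 against 3.7 CPM, Slpi, an inhibitor of elastase, at 2305 against 8.68 CPM and Hp, haptoglobin, at 1179 against 8.06 CPM. Alpl was the exception, at 45.4 against 136 CPM, and is also a gene of tubule cells.

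Camp, which encodes the antimicrobial peptide cathelicidin, had the highest ratio of any gene named by rule, and 1 barcode decided it. That barcode, in library 3, held 195 of the 197 Camp UMIs of all members. It also held 135 of 199 Ngp, 47 of 68 Ltf and 67 Lcn2 UMIs on a total of 4461. All 3 genes encode specific granule proteins that marrow precursors make. It had no Csf3r, Mki67, Top2a, Mpo or Elane UMI, 1 Cxcr2 UMI and 7 Ly6c2 UMIs. Without this barcode the log2 ratio of Camp over all other barcodes was 6.79 in place of 13.41, and that of Ngp 9.99 in place of 11.62. Cell cycle genes were near 0 in members, Mki67 with 11 UMIs and Top2a with 6.

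Camp and Ngp had the highest ratios among genes at 50 CPM or more in members. After them came the cystatin-type inhibitors Stfa2l1 (349 CPM in members, 681-fold) and Cstdc4 (411 CPM, 619.6-fold), then Retnlg (4976 CPM, 618-fold). Acod1, which makes itaconate, was at 1077 CPM and found in 53.3% of members, and Trem1, an activating receptor, at 917 CPM. Further genes among the 20 highest were less abundant. Il1f9, an interleukin 1 family cytokine, was at 225 CPM, Slfn4 at 182 CPM and Asprv1, a protease gene, at 388 CPM. Ifitm1 was at 3360.2 CPM, with 2063, 2300.2, 4459 and 2261 CPM in libraries 1, 2, 3 and 4. Library 3 was thus the highest for Ifitm1, as it was for Lcn2.

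Receptors for chemoattractants and adhesion molecules were the next group. Of 14 chemoattractant receptors, 10 were at a level for testing, and 9 of them were at least 4 times higher in members (11.1% of all genes tested). Cxcr2, the receptor of Cxcl1 and Cxcl2, was at 659.9 CPM (interval 619.7 to 702) in members and 2.07 CPM in other barcodes. The formyl peptide receptors Fpr1 and Fpr2 were at 148 and 179 CPM, and the leukotriene B4 receptor Ltb4r1 at 103 CPM. Ccr2, the receptor that monocytes use to leave the marrow, was the member of the list that did not pass, at 25.7 CPM. Cxcr4, which binds the marrow chemokine Cxcl12 and is higher in aged neutrophils, was at 111 CPM and was found in 13.4% of members. Among adhesion genes 9 of 11 passed upwards. Icam1 (203 against 55.9 CPM) and Cd47 (207 against 85.6 CPM) did not pass.

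Members carried chemokine and interleukin 1 transcripts in most barcodes. Cxcl2, which attracts further neutrophils, was at 13450.5 CPM and found in 85.7% of members, against 158 CPM in other barcodes and 4.46% of proximal tubule barcodes. Il1b was at 8479 against 116 CPM and found in 89.5% of members. Both genes were thus above every other chemokine or cytokine of the lists in the share of barcodes that held them. Of 11 chemokines tested, 5 passed the 4-fold limit upwards, as did 11.1% of all genes tested (Cxcl2, Cxcl3, Ccl3, Ccl4 and Ccl6). Cxcl1, Cxcl10, Cxcl16, Ccl2, Ccl5 and Ccl9, made by several kidney cell types, did not pass in either direction. Of 11 cytokines and growth factors tested, 9 passed upwards, among them Osm at 234 CPM, Csf1 at 211 CPM and Il23a at 61.8 CPM. Hbegf, an epidermal growth factor ligand of injured tubules, was lower in members at 46.7 against 344 CPM, and Il6 and Il12b had no UMI.

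Pattern recognition genes included Clec4e, which the study is about. Of 21 measured, 19 were at a level for testing, many of them only through the members, and these 19 were at least 4 times higher (11.1% of all genes tested), a count that the choice of members favours. Clec4e lies at chr6:123281789-123289870 on the minus strand (GRCm38), near its relatives Clec4d and Clec4n. It was at 1303 CPM (interval 1246 to 1361) in members and at 9.4 CPM in all other barcodes, a ratio of 139-fold. Clec4d, whose product pairs with Mincle at the cell surface, was at 1036 against 7.56 CPM, and Clec4n, which encodes dectin-2, at 446 against 7.73 CPM. The shared signalling chain of these receptors was present too, with Fcer1g at 2981 CPM, Syk at 267 CPM and Card9 at 9.87 CPM. Tnf, a cytokine downstream of this pathway, was at 178 against 6.59 CPM and was found in 15.1% of members.

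Enzymes and regulators completed the profile. The counts here stand beside 11.1% of all genes tested that were at least 4 times higher. Of 6 NADPH oxidase genes, 5 passed upwards and Cyba, which tubules also express, did not (1471 against 1121 CPM). Of 5 lipid mediator genes tested, 4 passed upwards, with Alox5ap, which presents arachidonate to 5-lipoxygenase, at 1326 CPM and Ptgs2, cyclooxygenase 2, at 576 CPM. NF-kB feedback genes passed in 8 of 10 cases, interferon-stimulated genes in 13 of 15 and glycolysis and hypoxia genes in 7 of 16. Of 15 transcription factors, 8 passed upwards, such as Spi1 (PU.1) at 565 CPM and Cebpb at 418 CPM, and Jun passed downwards at 528 against 2256 CPM. In the Bcl2 family 5 of 10 passed, namely Mcl1, Bcl2l11 and the paralogs Bcl2a1a, Bcl2a1b and Bcl2a1d. The Bcl2a1 paralogs are near-identical in sequence, so reads may be split among them and their separate values are uncertain.

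Members of libraries 2, 3 and 4, each with more than 100 barcodes, differed in many transcripts. Of 1262 genes with a mean of at least 100 CPM over the 3, 226 (17.9%) were at least 3 times apart between the highest and the lowest library. Of these 226 the highest level was in library 2 for 84 genes, in library 3 for 121 and in library 4 for 21. Not all need be differences of neutrophils. Of 7 proximal tubule genes at that level, 6 were at least 3 times apart, as were 5 of 9 chemoattractant receptors and 0 of 9 adhesion genes. The part of RNA of other cells in the 226 was not tested. The condition of each library is unknown, and spread between animals cannot be told apart from condition.

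**Figure D2:**
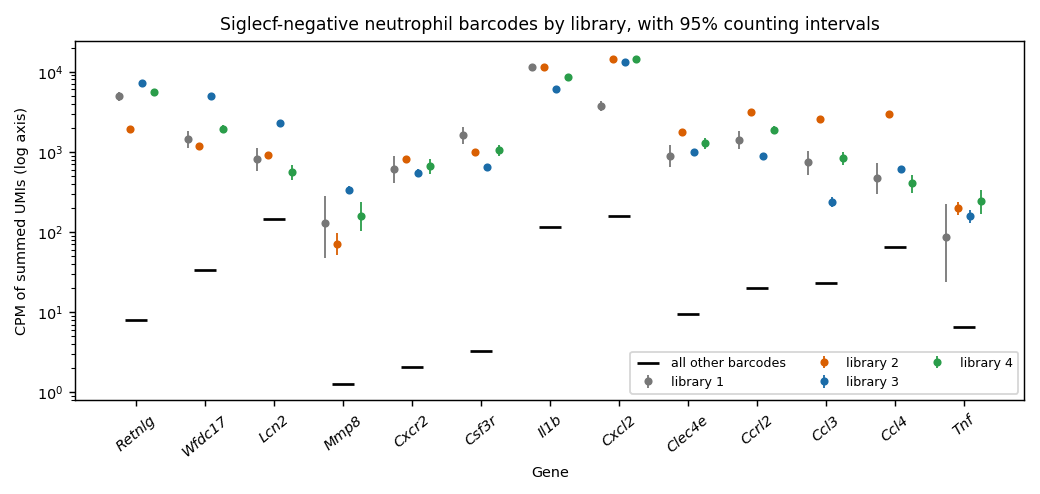
CPM of 13 genes on a log axis in Siglecf-negative neutrophil barcodes of libraries 1 to 4, with 95% Poisson intervals for counting error, and in all other barcodes as black bars. Ccl3 and Ccl4 are highest in library 2, and Retnlg, Lcn2, Wfdc17 and Mmp8 in library 3.

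Several chemokine and receptor genes were highest in library 2 (values below are in the order of libraries 1, 2, 3 and 4). Ccl3 (MIP-1 alpha, at chr11:83647844-83649355, minus strand) was at 738, 2604, 236 and 828 CPM. Ccl4 (MIP-1 beta), its neighbour at chr11:83662584-83664683 on the plus strand, was at 478, 2953, 610 and 404 CPM. For both genes library 2 was the highest of the 4, and its counting interval for Ccl3 (2474 to 2739.7 CPM) lay above that of library 4 (686 to 991 CPM). Fth1, the heavy chain of the iron store ferritin, was at 36002, 49880.5, 21831 and 25855 CPM, again highest in library 2. Il1rn, the interleukin 1 receptor antagonist, was at 803, 1489.8, 197 and 285 CPM, and Ccrl2, a receptor that presents chemerin, at 1411, 3111, 877 and 1893 CPM. Of the 15 pattern recognition genes at 100 CPM or more over libraries 2, 3 and 4, 14 were highest in library 2 and 1 in library 4, and 3 of the 15 were at least 3 times apart. Of all 1262 genes at that level, 38.1% were highest in library 2, 31.1% in library 3 and 30.8% in library 4, and 17.9% were at least 3 times apart. Clec4e was at 890.3, 1755, 994 and 1273 CPM, and Clec4n at 586, 831, 114 and 619 CPM. Tnf was at 197, 157 and 244 CPM in libraries 2, 3 and 4, values whose counting intervals overlapped between libraries 2 and 4. Some lists of other cell types were also highest in members of library 2. The macrophage list was at 261, 852, 368 and 800 CPM and the dendritic list at 130, 627, 296 and 216 CPM. The endothelial and erythroid lists were at 161 and 164 CPM in library 2. The monocyte list (217, 147, 635 and 320 CPM) and the proximal tubule list were lowest there. The part of such RNA in these levels was not tested.

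Library 3 was the highest for some neutrophil transcripts. Retnlg, a resistin-like gene of mature neutrophils at chr16:48872621-48874496 (plus strand), was at 4907, 1902, 7185 and 5629 CPM. Wfdc17 was at 1433, 1184, 5031 and 1948 CPM, Wfdc21 at 478, 398, 1279.6 and 654 CPM and Mmp8, neutrophil collagenase, at 130.3, 71.6, 336 and 160 CPM. Retnlg was lowest in library 2, and all 4 genes, chosen after their values were seen, were highest in library 3. The gelatinase granule and secretory vesicle list did not follow them. It summed to 9098, 6916, 6694 and 6951 CPM, lowest in library 3, and 3 of its 8 genes at 100 CPM or more were highest there. Several further genes that set library 3 apart were those of other cells. S100a4 was at 0, 52.4, 263 and 0 CPM, Crip1 at 21.7, 59.4, 239.5 and 6.96 CPM and Tmsb10 at 195, 92.6, 471 and 34.8 CPM, and the monocyte barcodes defined further on held 2777, 3002 and 2636 CPM of them. The 26 members with 3 or more monocyte UMIs held 175 of the 229 S100a4 UMIs. Without them, the log2 ratio of S100a4 over all other barcodes went from 1.37 to -0.62 and that of Crip1 from 0.54 to -0.61. Spink1 was at 152, 136, 1745 and 793 CPM and Slc13a1 at 0, 31.4, 388 and 118 CPM, and both are genes of the proximal tubule. The proximal tubule list, given above, was highest in members of library 1, where Spink1 and Slc13a1 were low, and lowest in library 2. Hspa1a, a heat shock gene, was highest in library 2 (388 CPM), but its 251 UMIs lay in 27 members, and 66 of these UMIs in 1 barcode.

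Within a library, members with Retnlg transcripts held fewer Ccl3 and Ccl4 transcripts than members without. After every barcode was thinned to 500 UMIs, Retnlg UMIs were found in 111 of 420 members of library 2, in 257 of 502 of library 3 and in 45 of 126 of library 4. Members with and without a Retnlg UMI were compared inside each of these libraries at that depth, a split chosen after Retnlg was seen to vary among members. Before thinning, 144, 304 and 50 members of the 3 libraries held Retnlg, so some members without it at 500 UMIs do hold it. Retnlg was found in 9.30% of the 43 members just inside the limit on S100a8 and S100a9, and in 49.8% of the other 1057. The members just inside the limit, fewer of which held a receptor UMI, thus fell mostly on the side without Retnlg. Their part in the split was not tested. Median depths before thinning were 1241 with against 1303 without in library 2, 1447 against 1178 in library 3 and 1215 against 1068 in library 4. Of 462 genes at a mean of 300 CPM or more, 13 (2.81%) were at least 1.5 times higher with Retnlg in all 3 libraries and 29 (6.28%) at least 1.5 times lower. The median log2 ratio over all genes tested was -0.24, -0.14 and -0.23 in libraries 2, 3 and 4.

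**Figure D3:**
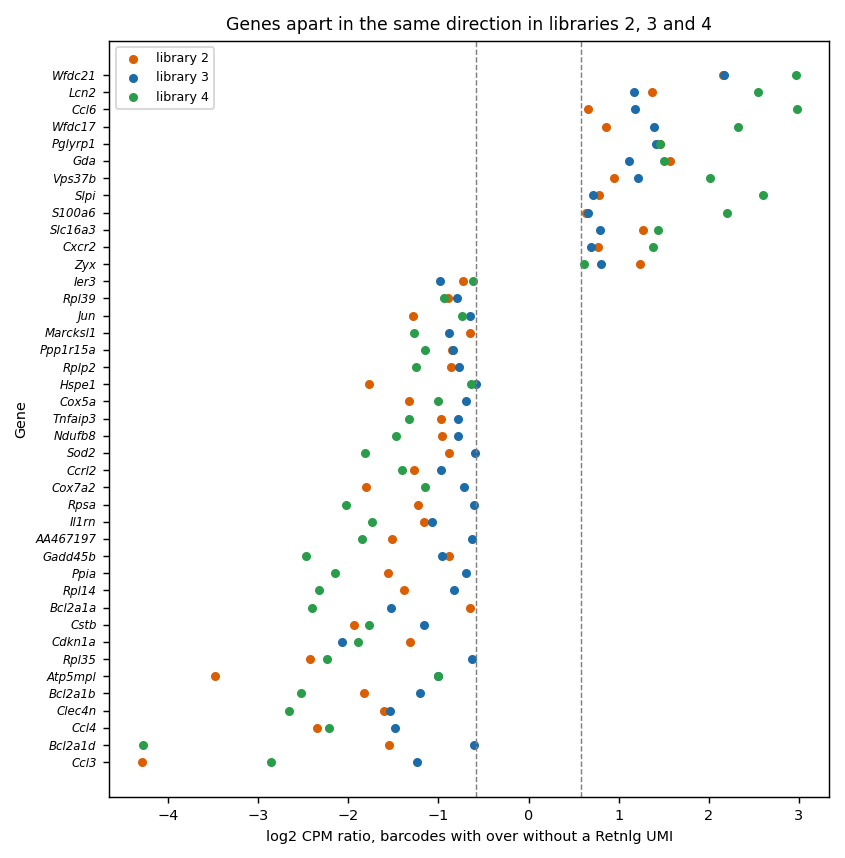
The log2 ratio of CPM in members with over members without a Retnlg UMI, after thinning to 500 UMIs, for 41 of the 42 genes at least 1.5 times apart in the same direction in libraries 2, 3 and 4 (dashed lines at 1.5 times). A count of 0 was set to 3 UMIs. Granule and secretory genes such as Wfdc21 and Lcn2 lie on the right, and Ccl3, Ccl4 and Bcl2a1 genes on the left.

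Genes higher with Retnlg included 2 of 6 tested genes of the gelatinase granule and secretory vesicle list and 1 of 5 chemoattractant receptors, while another of those receptors was lower (background 2.81% higher and 6.28% lower). Wfdc21, a whey acidic protein family gene, was at 1099 with against 246 without in library 2, 1805 against 400 in library 3 and 1156 against 148 in library 4 (CPM after thinning). Lcn2 was at 1658 with against 641 without in library 2, 2599 against 1151 in library 3 and 1156 against 198 in library 4. The others included the granule genes Pglyrp1 and Slpi, the chemokine Ccl6, the receptor Cxcr2 and the lactate transporter Slc16a3. Cxcr2 was at 1117 with against 654 without in library 2, 700.4 against 433 in library 3 and 1289 against 494 in library 4.

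Genes lower with Retnlg included 2 of 5 tested chemokines, 3 of 4 genes of the Bcl2 family and 2 of 6 NF-kB feedback genes (background 6.28%). The 3 of the Bcl2 family were the near-identical Bcl2a1 paralogs, which count as little more than 1 observation. Mcl1, the other gene tested, did not pass, with log2 ratios of 0.18, 0.16 and -0.58 in libraries 2, 3 and 4. Ccl3 was at 162 with against 3172 without in library 2, 156 against 367 in library 3 and 178 against 1284 in library 4, and Ccl4 at 667 with against 3398 without in library 2, 381 against 1061 in library 3 and 0 against 617 in library 4. The 3 Bcl2a1 paralogs, the NF-kB feedback genes Tnfaip3 and Ier3, the antagonist Il1rn, the receptors Ccrl2 and Clec4n and the cell cycle inhibitor Cdkn1a were lower as well. Gadd45b, a stress response gene, was at 1928 with against 3553 without in library 2, 623 against 1208 in library 3 and 311 against 1728 in library 4. Of 76 tested genes with names in Rpl or Rps, 5 were lower, and of 39 with names in Cox, Nduf, Uqcr or Atp5, 4 were lower, shares near the background. Of the gene lists that the study drew from its own neutrophil subsets on these samples, and that are therefore no independent evidence, the list of Neu_1 had 14 of 27 tested genes lower with Retnlg and 0 higher, and that of Neu_2 had 12 of 38 higher and 0 lower.

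The same thinned members were also read barcode by barcode. Ccl3 was found in 4.50% of members with Retnlg and 35.9% of those without in library 2, in 4.28% and 9.80% in library 3 and in 4.44% and 22.2% in library 4. Ccl3 and Ccl4 were found together in 65 members of library 2, against 30.4 from the product of their shares. Clec4e was at 1532 with against 1877 without in library 2, 755 against 1192 in library 3 and 1111 against 1333 in library 4 (CPM after thinning). Its log2 ratio was -0.29 (95% interval -0.66 to 0.06) in library 2, -0.66 (95% interval -1.04 to -0.28) in library 3 and -0.26 (95% interval -1.01 to 0.45) in library 4. The medians over all genes tested were -0.24, -0.14 and -0.23. Clec4e was thus near the median in libraries 2 and 4, with intervals that held 0. It was 1.5 times lower with Retnlg in library 3 alone. Clec4e was found with Retnlg in 55 members of library 2, 76 of library 3 and 18 of library 4, where the products of the shares were 54.2, 83.4 and 18.6. Clec4e and Tnf were found together in 18, 15 and 4 members against products of 14.6, 9.42 and 4.54.

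The promoter letters of the 2 sets, the genes higher and lower with Retnlg, were read for motifs of factors known in neutrophils. Apart from a few pairs, whether the genes of a set varied with one another across members was not tested. RefSeq windows of 250 bases before the gene start (GRCm38.p6) were found for 10 of the 13 genes higher with Retnlg and for 25 of the 29 lower. A gene was counted if any of its windows matched, whereas the percentages below are shares of single windows, so the measures are unlike. TTGCNNAA on either strand, the core letters bound by C/EBP factors, was in 3 of the 10 (Gda, Lcn2 and Slpi), in 0 of the 25 and in 9.56% of 32851 windows. TGANTCA, AP-1-type letters with any base in the middle, is looser than the AP-1 consensus. It was in 1 of the 10 (Zyx), in 6 of the 25 (AA467197, Bcl2a1a, Bcl2a1b, Bcl2a1d, Il1rn and Tnfaip3) and in 6.75% of windows. The 3 Bcl2a1 matches read TGAATCA. GAGGAAGT, a PU.1 motif, was in 0 of the 10, in 4 of the 25 (Bcl2a1a, Bcl2a1b, Bcl2a1d and Rpl35) and in 2.44% of windows, and a kappaB motif (GGGA and TTCC with 2 bases between) in 1 (Pglyrp1), 0 and 1.21%. In Bcl2a1b the PU.1 letters lie close after the AP-1-type letters. The 3 Bcl2a1 promoters share their sequence by duplication and count as little more than 1 observation.
The windows around the matches are shown because they come from genes of both sets. Capitals mark the C/EBP letters (in Bcl2a1b, the AP-1-type letters). The windows read 5′ to 3′ on the strand of the gene: Lcn2 at chr2:32387908-32387989 (minus), Slpi at chr2:164356701-164356757 (minus), Gda at chr19:21472848-21472911 (minus) and Bcl2a1b at chr9:89199069-89199155 (plus).
Lcn2: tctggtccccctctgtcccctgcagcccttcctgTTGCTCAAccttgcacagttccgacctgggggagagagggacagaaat
Slpi: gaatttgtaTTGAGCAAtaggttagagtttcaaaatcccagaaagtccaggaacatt
Gda: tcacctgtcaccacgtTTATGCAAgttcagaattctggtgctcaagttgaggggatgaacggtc
Bcl2a1b: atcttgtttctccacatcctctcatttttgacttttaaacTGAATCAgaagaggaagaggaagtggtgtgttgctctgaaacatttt
A match of these letters is a description of the sequence and not a binding site.

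The nearest group to the members were the 91 barcodes that met every other limit but held Siglecf, with 126393 UMIs and a median of 1312 UMIs. Because a barcode without a Siglecf UMI can still come from a cell with the transcript, this comparison separates the 2 kinds of cell only in part. Of 6663 genes with a mean of 10 CPM or more, 585 (8.78%) were at least 2 times higher in members and 1250 (18.8%) at least 2 times lower, and in the Siglecf-positive group 3 UMIs make 23.7 CPM. At a mean of 200 CPM or more, a limit chosen after seeing the data, 15 of 696 genes (2.16%) were higher and 24 (3.45%) lower. Libraries supplied the groups unequally, with 46 Siglecf-positive barcodes in library 2, 26 in library 4, 15 in library 3 and 4 in library 1.

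**Figure D4:**
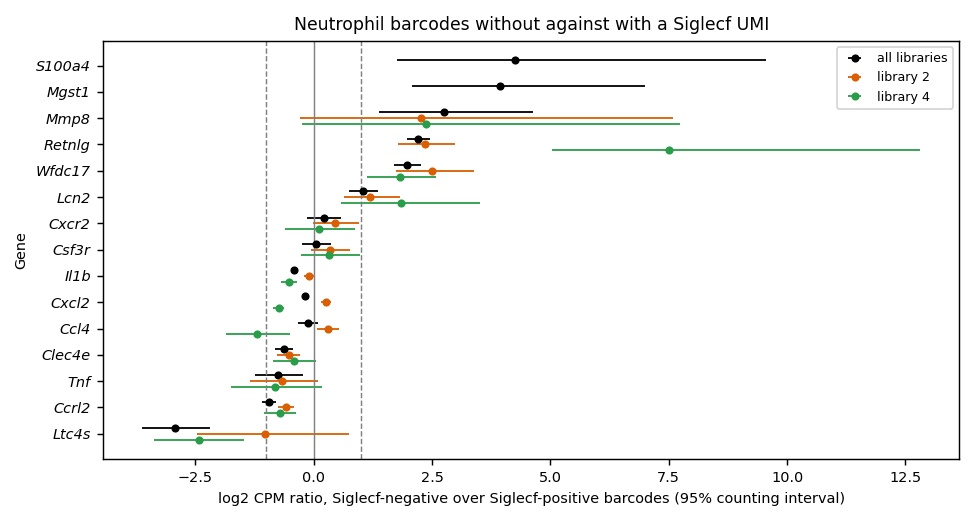
The log2 ratio of CPM in Siglecf-negative over Siglecf-positive neutrophil barcodes for 15 genes, over all libraries and within libraries 2 and 4, with 95% conditional binomial intervals for counting error and dashed lines at 2 times higher and lower. Retnlg and Wfdc17 lie beyond 1, Csf3r and Cxcr2 near 0, and Ltc4s beyond -1 over all libraries.

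Members held more Retnlg, Wfdc17 and Slpi than Siglecf-positive barcodes. Retnlg was at 4976 CPM in members and 1076 CPM in Siglecf-positive barcodes (log2 ratio 2.21, 95% interval 1.96 to 2.46), and within library 2 the ratio was 2.35. Wfdc17 was at 3175 against 807 CPM, with log2 ratios of 2.50 in library 2 and 1.81 in library 4. Slpi (2305 against 878 CPM), Lcn2 (1563 against 759.5 CPM) and Mmp8 (213 against 31.6 CPM) were in the same direction, each past the 2-fold limit. Lcn2 passed it narrowly, with a log2 ratio of 1.04, and was at 924 against 403 CPM within library 2 and 557 against 154 CPM within library 4. Both of these Siglecf-positive values lay below the pooled 759.5 CPM, so Siglecf-positive barcodes of libraries 1 and 3 together held more Lcn2. These were 4 and 15 barcodes, and whether Lcn2 differed within library 3 was not tested. Within libraries 2 and 4 the log2 ratios were 1.45 and 4.26 for Slpi and 2.26 and 2.38 for Mmp8. Mmp8 had 4 UMIs in the Siglecf-positive group over all libraries and fewer within each, so its ratios within a library add little. The glutathione enzyme gene Mgst1 was at 243 CPM in members and had 2 UMIs in the Siglecf-positive group (log2 ratio 3.94, 95% interval 2.08 to 6.99), and the chitinase-like gene Chil1 was at 97.4 CPM and had 1 UMI there (3.62, 95% interval 1.12 to 8.93). S100a4 and Ly6c2 also passed, and rest in part on the 26 members with monocyte genes. Camp and Ngp rest on the single barcode described above, which held 7 Ly6c2 UMIs and so is itself 1 of the 26.

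Siglecf-positive barcodes held more of some receptor and enzyme transcripts. Ccrl2 was at 3544 CPM in them and 1829.8 CPM in members (log2 ratio -0.95, 95% interval -1.10 to -0.81), Clec4n at 1116 against 446 CPM (-1.32, 95% interval -1.59 to -1.05) and Icam1 at 506 against 203 CPM (-1.32, 95% interval -1.71 to -0.90). Clec4n and Icam1 passed the 2-fold limit and Ccrl2 fell just short of it. Within libraries 2 and 4 the log2 ratios were -0.59 and -0.72 for Ccrl2, -0.93 and -0.58 for Clec4n and -0.89 and -1.88 for Icam1, so Clec4n passed in neither library and Icam1 in library 4. The lists these genes belong to did not move one way: 3 of 20 pattern recognition genes were higher in members and 1 lower, and of 11 adhesion genes 2 were higher and 2 lower, beside 8.78% of all genes higher and 18.8% lower. Clec4e was at 2025 against 1303 CPM, a log2 ratio of -0.64, 95% interval -0.83 to -0.44, with -0.53 within library 2 and -0.41 within library 4. Its interval over all libraries did not reach a 2-fold difference. Tnf was at 301 against 178 CPM (-0.75, 95% interval -1.25 to -0.22). Ltc4s, leukotriene C4 synthase, was at 229 against 30.3 CPM, with a log2 ratio of -2.92, 95% interval -3.62 to -2.20 over all libraries, -1.03 in library 2 and -2.42 in library 4. The antigen presentation gene Cd74 was at 657 against 245 CPM over all libraries, but its log2 ratio was 1.53 in library 2 and 0.44 in library 4, the opposite direction.

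Other genes differed little. Csf3r was at 844 against 815 CPM, a log2 ratio of 0.05, 95% interval -0.24 to 0.35, and Cxcr2 at 659.9 against 569.7 CPM (0.21, 95% interval -0.13 to 0.58). Cxcl2 was at 13450.5 against 15317 CPM, with log2 ratios of 0.25 in library 2 and -0.74 in library 4, so its direction differed between the 2 libraries. Of the study's list for Neu_1, drawn from these samples like that for Neu_2, 0 of 50 genes were at least 2 times higher in members and 10 lower, beside 18.8% of all genes, and of its list for Neu_2, 16 of 50 were higher (8.78% of all genes) and 0 lower. At a mean of 200 CPM or more, 7 of 41 genes of the Neu_1 list were lower, beside 3.45% of all genes, and 10 of 43 of the Neu_2 list were higher, beside 2.16%. Among the lists by function, specific granule genes (3 of 6) and gelatinase granule and secretory vesicle genes (3 of 10) passed upwards (8.78% of all genes tested). So did 3 of 11 chemokines, with 1 lower, and 3 of 15 interferon-stimulated genes. Of the specific granule genes, Camp and Ngp rest on the single barcode and fell below 0 with libraries 2 and 4 weighted equally. Camp had at most 2 UMIs in members there. At a mean of 200 CPM or more the higher counts were 1 of 1, 1 of 6, 1 of 5 and 0 of 5 for these 4 lists (2.16% of all genes). NF-kB feedback genes (0 of 10 in either direction) and transcription factors (0 of 16) did not pass.

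A second comparison was with 163 monocyte barcodes, defined after seeing the data by at least 2 UMIs each of Ly6c2 and Lyz2, under 1% S100a8 and S100a9 and the same tubule limits (665830 UMIs, median 3925, 104 of them in library 3). Of 6971 genes tested, 1007 (14.4%) were at least 2 times higher in members and 1519 (21.8%) at least 2 times lower, and the median log2 ratio was -0.24. Of 13 chemoattractant receptors, 8 were higher in members and 4 lower. Cxcr2 and Mmp9 had no UMI in monocytes, which allows up to 4.51 CPM of each, and Csf3r was at 844 against 43.6 CPM. Clec4e was at 1303 against 421 CPM (log2 ratio 1.63) and 12 of 20 pattern recognition genes were at least 2 times higher. Genes shared by both cell types included Hp (1179 against 979 CPM), Ccl6 (1639.6 against 1529 CPM) and Alox5ap (1326 against 1445 CPM). Cybb, the catalytic subunit of the NADPH oxidase, was lower in members at 75.7 against 787 CPM. Igkc, an antibody chain gene of B lineage cells, was at 3866 CPM in the monocyte barcodes, so that group was not pure.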

How the data were processed

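Libraries of kidney cell suspensions were made with 10x 3' chemistry. Cell Ranger 6.0 and the mm10 build are named in the submitters' processing notes, and a single matrix of raw counts was deposited by the authors (UMIs of 32285 genes), in which no cell had been called. The members and gene lists were chosen with earlier results of these data known. Counts were used as deposited, and no batch was corrected. The authors' 5 samples could not be matched to the 5 libraries by any label, so libraries were kept apart by number. UMIs were summed over a group and scaled to CPM, and genes were compared at a fixed fold (4 times against other barcodes, 2 times against nearest groups) where the mean of the 2 CPM was at least 10, with 95% intervals for counting error only. UMIs were treated as independent, so intervals can be too narrow. A group at 0 was set to 3 UMIs. Barcodes were thinned to 500 UMIs for the Retnlg split, for pairs of genes found together, for the Fano factor and for the receptor shares given as thinned. Other shares are of barcodes at full depth, which differed between groups and libraries. Genes named are those of lists by function or cell type, Clec4e and Tnf, the 20 highest ratios to other barcodes among genes at 50 CPM or more, the 10 highest and 10 lowest ratios to Siglecf-positive barcodes, the 10 with the largest spread between libraries and the 10 with the highest Fano factor after thinning. The genes of the Retnlg split (Gda, Vps37b, Gadd45b and others outside the lists) were named after their values were seen. A few genes that met these rules are not reported here. Doublets were kept, and Scrublet (scanpy 1.11.5) was run as an alternative. The ratio script was tested on simulated counts. Python 3.11.15, numpy 2.4.6 and scipy 1.17.1 were used.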

Additional observations from a re-analysis of the deposited data

How the results depend on the processing

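No paired analysis was possible because the labels list 1 sample per condition and no barcode could be tied to a condition. The number of members, 1100 as reported, fell to 580 when no Lrp2 or Slc34a1 UMI was allowed, and lay between 598 (without library 3) and 1098 when 1 library was left out, with 680 without library 2. The share of members with a Csf3r or Cxcr2 UMI, 75.0% as reported, was 81.4% at 1000 UMIs or more, 77.6% at 10% or less mitochondrial UMIs and 79.7% at 2% or more S100a8 and S100a9, and lay between 72.4% and 78.8% (without library 3) with 1 library left out.

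Against all other barcodes, leaving out 1 library gave 746 to 1008 genes 4 times higher and 520 (without library 2) to 1893 (without library 3) genes 4 times lower. With no tubule UMI allowed 1549 genes were lower. With no filter on low counts 6891 genes were higher and 1836 lower, and at a mean of 200 CPM or more, added after seeing the data, 128 and 80. Against Siglecf-positive barcodes, 354 genes were 2 times higher with no tubule UMI allowed and 3865 lower with no filter, and at 200 CPM 15 were higher and 24 lower. Leaving out 1 library gave 459 to 579 higher and 1218 to 1802 lower. Other counts stayed within 1.5 times, Scrublet (102 members marked) included.

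Some log2 ratios changed sign. Over Siglecf-positive barcodes, Camp was -1.10, Ngp -0.52 and Tmsb10 -0.28 with libraries weighted equally. That setting used libraries 2 and 4 alone, the only ones with at least 20 barcodes in both groups. It left out library 3, which held the barcode with most Camp. All members but that barcode held 2 Camp UMIs, so the Camp value rests on at most 2 UMIs of members. With no tubule UMI allowed, Ngp was -0.23 and Gm26917 -1.28. With 1 library left out, Ngp lay between -1.66 (without library 3) and 2.47 and Hspa1a between -0.72 (without library 2) and 4.10. Without members holding Ly6c2, Ccr2, Csf1r or C1qa, which removes Ly6c2 by construction, Ly6c2 was -3.60 over Siglecf-positive and -1.88 over other barcodes and Tmsb10 -0.39. Without the 26 members with 3 monocyte UMIs Tmsb10 was -0.23. Apart from Ly6c2, the cause was not tested. Of the other values of named genes, 1159 stayed inside their counting interval and 472 moved outside it without a change of sign in a called value. Depth limits genes in the small Siglecf-positive group, where 3 UMIs make 23.7 CPM.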
